A study of Mus musculus with 10 samples.

Results

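Genes that control the making of mitochondria, or that encode sirtuins, were examined in CD31+ cells of the mouse heart after a ketogenic diet. They are the transcriptional coactivators Ppargc1a and Ppargc1b, the transcription factors Esrra, Nrf1 and Gabpa, the mitochondrial DNA factor Tfam, and the sirtuins Sirt1, Sirt2, Sirt3 and Sirt5. They were chosen by name, as 10 of the 46983 genes in the table, and all 10 passed the filter on low counts that left 15949 genes for testing. Wild-type male C57BL/6J mice, 8 weeks old at the start, received either a control diet with 11.6% of its energy as fat (5 mice) or a ketogenic diet with 89.5% of its energy as fat (5 mice) for 14 days. Cardiac cells were captured on magnetic beads carrying CD31 antibodies, and the polyadenylated RNA of each mouse gave 1 library. The labels name no transgene and no treatment other than the diet in either group.

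PGC-1α and PGC-1β, the products of Ppargc1a and Ppargc1b, do not bind DNA themselves but dock on nuclear receptors and other factors and raise their activity. Among those factors are ERRα (Esrra), NRF-1 (Nrf1) and the ETS protein GABPα (Gabpa), which act on nuclear genes of the respiratory chain and on Tfam, whose product packages mitochondrial DNA and starts its transcription. Sirtuins remove acyl groups from proteins at the cost of NAD+: SIRT1 is mainly nuclear and has PGC-1α among its substrates, SIRT2 is mainly cytosolic, and SIRT3 and SIRT5 reside in mitochondria.

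Promoters of the members were also examined for motifs of NRF-1, GABP, ERR and YY1 and for the E-box. Stretches that hold an exact match are shown before the values, and binding was not tested. RefSeq windows from 250 bases before to 50 bases after each transcription start on GRCm38.p6 were available for 9 of the 10 genes (11 windows) and were searched on both strands for the NRF-1 motif GCGCATGCG, the GABP motif CCGGAAG, the ERR motif TCAAGGTCA, the YY1 motif AANATGGCG and the E-box CACGTG. The GABP motif was found in Tfam, Gabpa and Sirt3, against 8.86% of all 32851 windows. The YY1 motif was found in Gabpa (2.38% of all windows) and the E-box at 2 places in Sirt1 (7.15%). The NRF-1 motif (1.75%) and the ERR motif (0.423%) were in none of the member windows. In the 30-base stretches below, read 5′ to 3′ on the strand of the gene, capitals mark the motif or its reverse complement. The GABP stretch of Gabpa ends within the first bases of its YY1 stretch, and the capitals of the 2 do not overlap.
Tfam, GABP motif, chr10:71238073-71238102, minus strand: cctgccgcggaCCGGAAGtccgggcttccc
Gabpa, GABP motif on the other strand, chr16:84835020-84835049, plus strand: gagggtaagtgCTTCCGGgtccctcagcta
Gabpa, YY1 motif on the other strand, chr16:84835046-84835075, plus strand: gctaagactcCGCCATCTTtcctacacttt
Sirt3, GABP motif on the other strand, chr7:140882376-140882405, minus strand: gtgctcgctcaCTTCCGGcaccgcgggcgc
Sirt1, E-box, chr10:63339133-63339162, minus strand: gcggcgcccggcCACGTGacccggcgtgtt
Sirt1, E-box, chr10:63339061-63339090, minus strand: ggaggggcgggtCACGTGacggggtttaaa

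The libraries held 10885154 to 12710861 reads on genes. The 10 endothelial markers summed to 5255 to 5461 reads scaled to a common library size (CPM) in control mice and 5169 to 5715 in ketogenic mice, and none was at 0 in every mouse. Raw reads of some barely varied over the libraries, as with 6770 to 7020 for Pecam1 and 7356 to 7571 for Cdh5. Kdr varied more, from 7281 to 9501. The similar sums therefore cannot be read as equal endothelial content. Markers of other cells were also present: 10 cardiomyocyte markers summed to 547 to 694 CPM in control mice and 618 to 871 CPM in ketogenic mice. The 6 pericyte and smooth muscle markers summed to more, 2212 to 2371 CPM in control mice and 2157 to 2399 CPM in ketogenic mice. The 6 fibroblast markers summed to 637 to 723 CPM in control mice and 632 to 771 CPM in ketogenic mice. Lymphocyte markers were lower on the ketogenic diet without overlap of the groups (146 to 190 CPM against 196 to 286). The 4 platelet markers all had estimates below 0 (median log2 fold change -0.72, none past the test), with sums of 157 to 399 CPM on the ketogenic and 322 to 534 on the control diet. Macrophage markers had a median of -0.46 (none past the test) and sums of 191 to 370 CPM against 212 to 646. The part of these cells in the results below was not tested. In bulk RNA, fewer cells of a type and less RNA per cell cannot be told apart. Error terms below are SDs over 5 mice unless named otherwise, and p-values measure the spread between mice.

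None of the 10 genes passed the test between the diets, and the estimates of Ppargc1a, Gabpa and Sirt1 were the farthest from 0. In edgeR's quasi-likelihood test, 0 of 10 passed an adjusted p of 0.05, against 1.34% of all tested genes (213, of which 129, or 0.809%, were higher and 84, or 0.527%, lower on the ketogenic diet). At an unadjusted p under 0.05 there were 3 of 10 (Ppargc1a, Gabpa and Sirt1), against 17.8% of all genes, with Ppargc1a and Gabpa higher (8.57% of all genes) and Sirt1 lower (9.26%). The DESeq2 Wald test also called 0 of 10, against 5.3% of the genes to which it gave an adjusted p. The groups were separated without overlap for 0 of 10 genes, against 4.34% of all genes. Estimates lay above 0 for 5 genes and below 0 for 5, against 48.6% of all genes above 0, and the median log2 fold change of the 10 was -0.01 beside -0.01 for all genes.

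**Figure D1:**
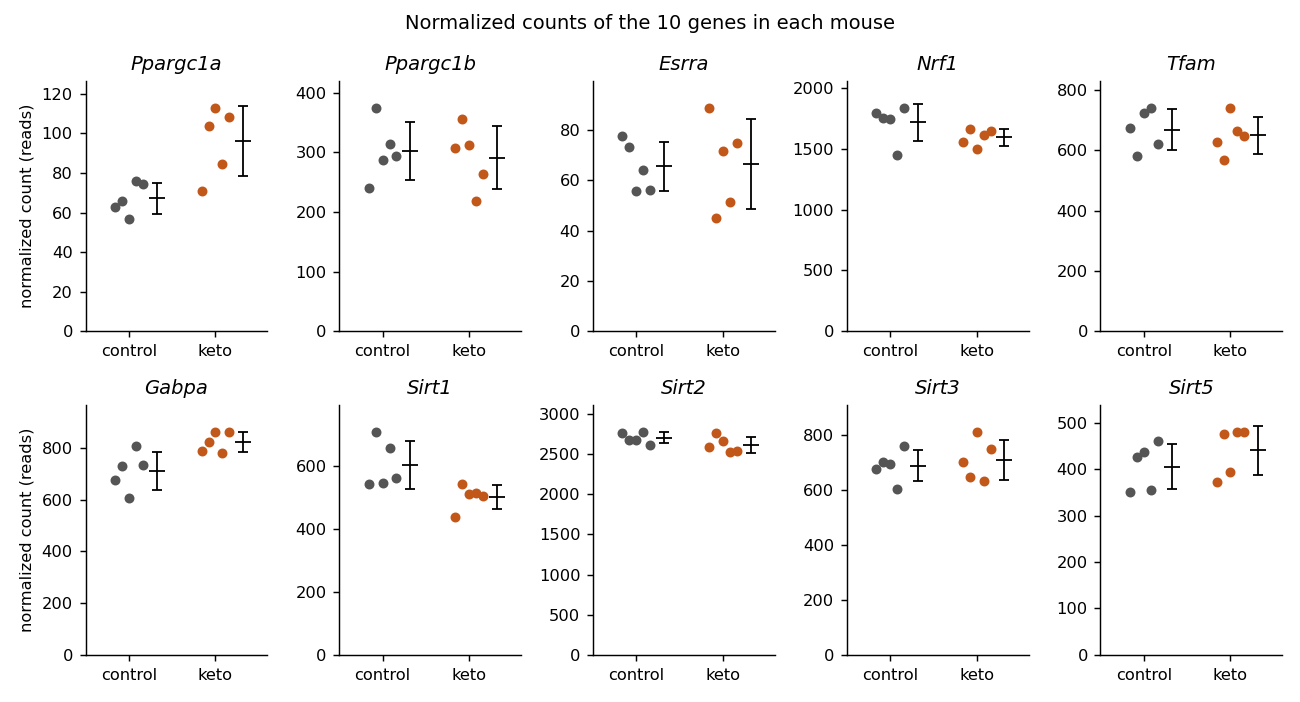
Normalized counts (reads scaled by library size and TMM factor, vertical axes from 0) of the 10 genes in each control (grey) and ketogenic (orange) mouse, with the mean and SD of 5 mice beside the points. The ketogenic points of Ppargc1a reach from 71.0 to 113 and those of control mice from 56.9 to 75.8, while the points of Sirt2 nearly coincide.

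Ppargc1a (ENSMUSG00000029167.13, chr5:51454250-51567726, minus strand, GENCODE M21 on GRCm38, as for the genes below) had the largest estimate of the 10. Its normalized counts were 62.6, 65.8, 56.9, 75.8 and 74.4 in control mice 1 to 5. In ketogenic mice 1 to 5 they were 71.0, 103.5, 113, 84.5 and 108. Ketogenic mice 2 to 5 lay above every control mouse, and ketogenic mouse 1 lay inside the control range. The mean was 67.1 ± 7.97 on the control diet and 96.1 ± 17.7 on the ketogenic diet, a log2 fold change of 0.52 (SE 0.153, 95% interval 0.18 to 0.85, 1.43-fold). Its edgeR adjusted p was 0.112, and 0.0628 to 0.517 over the 20 alternatives. With limma on log2(RPKM + 1), where the pseudocount exceeds the level of the gene in every mouse, the difference was 0.22 on that scale. The exact 2-sided permutation p on the log2 CPM of this gene alone was 0.0238, and 3 of the 10 genes had such a p under 0.05, against 15.9% of all genes. The counts rested on only 55 to 119 reads per library. At the mean of 82 reads over all 10 libraries, counting alone gives a coefficient of variation of 11.04%. The coefficient observed was 11.9% among control and 18.4% among ketogenic mice. As the group means differ, 11.04% is not the exact counting error of either group.

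Cardiomyocytes, which are rich in mitochondria, are a cell type with known Ppargc1a expression, and most cardiomyocyte markers also had estimates above 0. Of the 10 markers, 9 had a log2 fold change above 0 and 0 passed the test, with a median of 0.29 and a range from -0.49 to 0.83. Their summed level was 557, 547, 694, 606 and 596 CPM in control mice 1 to 5, and 618, 749, 871, 777 and 715 CPM in ketogenic mice 1 to 5. Ketogenic mouse 1 was lowest of its group in both the marker sum and Ppargc1a, and ketogenic mouse 3 was highest in both. Control mouse 3, with the highest marker sum of its group, had the lowest Ppargc1a count of all mice. In a fit that also held the marker score of each mouse, Ppargc1a stood at a log2 fold change of 0.36 (edgeR adjusted p = 0.517). Beyond that fit, the part of these markers in the estimate was not tested.

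Ppargc1b (ENSMUSG00000033871.14, on chromosome 18), the second coactivator, had an estimate near 0. Its normalized counts ran from 239.8 to 375 in control mice and from 219 to 355 in ketogenic mice, so that the groups overlapped nearly entirely. The log2 fold change was -0.05 (SE 0.141, 95% interval -0.36 to 0.25, edgeR adjusted p = 0.876). The ratio of Ppargc1a to Ppargc1b within a mouse, in reads per kilobase of gene and library size (RPKM), was 0.119, 0.0801, 0.0903, 0.110 and 0.116 in control mice 1 to 5. In ketogenic mice 1 to 5 it was 0.106, 0.133, 0.165, 0.176 and 0.188. Ketogenic mice 2 to 5 were above all control mice and ketogenic mouse 1 was not. On the log2 scale with a pseudocount of 0.5 RPKM the ratio was 0.34 higher on the ketogenic diet (exact 2-sided permutation p = 0.0635). Leaving out 1 mouse in turn, p was 0.0317 without ketogenic mouse 1 (difference 0.43) and 0.0556 to 0.135 in the other 9 cases. It was 0.0397 with a pseudocount of 0.1 (difference 0.50) and 0.111 with a pseudocount of 1 (difference 0.25).

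Gabpa (ENSMUSG00000008976.16, chr16:84834925-84863779, plus strand), the DNA-binding subunit of GABP and the bearer of 2 of the motifs shown above, had the second estimate above 0 by size. Its normalized counts were 676, 730.3, 607, 809 and 734 in control mice 1 to 5, and 789, 825, 864, 781 and 861 in ketogenic mice 1 to 5. Control mouse 4 lay inside the ketogenic range and the other 4 control mice lay below it. The means were 711 ± 75.1 and 824 ± 38.7, a log2 fold change of 0.21 (SE 0.0727, 95% interval 0.05 to 0.37). The edgeR adjusted p was 0.159 (0.0732 to 0.395 over the alternatives) and the exact permutation p for the gene alone was 0.0238. Gabpa shares 397 exon bases with Atp5j on the opposite strand, a gene with up to 833 reads, and the sources used here do not say whether counting used strand. Its partner subunits Gabpb1 and Gabpb2, which carry the activating domain, had log2 fold changes of 0.11 and -0.08 with edgeR adjusted p of 0.742 and 0.699.

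Nrf1 (ENSMUSG00000058440.14, chr6:30047988-30153458, plus strand), the factor NRF-1 of nuclear respiratory genes, was the most deeply counted of the transcription factors, with 1380 to 1843 reads per library. Its normalized counts were 1799, 1757, 1748, 1453 and 1839 in control mice 1 to 5, and 1559, 1666, 1496, 1618 and 1650.1 in ketogenic mice 1 to 5. Control mouse 4 was the lowest of all mice, and the other 4 control mice were above every ketogenic mouse. The log2 fold change was -0.11 (SE 0.0610, 95% interval -0.24 to 0.03, edgeR adjusted p = 0.393), and the exact permutation p was 0.167. Without control mouse 4 the groups no longer overlap, which by itself fixes the exact permutation p at its smallest possible value, 0.00794. Without any other mouse that p was 0.167 to 0.365. The edgeR adjusted p of Nrf1 was 0.0993 or more in all 20 alternatives.

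Esrra and Tfam showed no separation of the diets. Esrra (ENSMUSG00000024955.13, chr19:6910977-6921813), which encodes the orphan receptor ERRα, ran from 55.9 to 77.8 normalized counts in control mice and from 45.0 to 88.8 in ketogenic mice. Its log2 fold change was 0.02 with a 95% interval from -0.41 to 0.44, the widest of the 10, on 43 to 90 reads per library. Tfam (ENSMUSG00000003923.14, chr10:71225464-71238280, minus strand) had 581 to 740.1 normalized counts in control and 568 to 740.2 in ketogenic mice. Its log2 fold change was -0.04 with a 95% interval from -0.23 to 0.14. With the cardiomyocyte score in the fit the estimates were 0.31 for Esrra and -0.17 for Tfam (edgeR adjusted p of 0.612 and 0.515).

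Sirt1 (ENSMUSG00000020063.16, chr10:63319005-63381704, minus strand) had the lowest estimate of the 10. Its normalized counts were 542, 710.3, 546, 657 and 561 in control mice 1 to 5, and 438, 544, 511, 514 and 507 in ketogenic mice 1 to 5. Ketogenic mouse 2 lay just inside the control range and the other 4 ketogenic mice lay below it. The means were 603 ± 76.1 and 503 ± 38.9, a log2 fold change of -0.26 (SE 0.0902, 95% interval -0.46 to -0.07). The edgeR adjusted p was 0.159 (0.0961 to 0.430 over the alternatives), and the exact permutation p of 0.0159 became 0.0556 without ketogenic mouse 1. With the cardiomyocyte score in the fit the estimate was -0.27. The RefSeq start behind the E-box stretches shown above lies inside this GENCODE gene model, not at its end. The stretches shown for Tfam and Gabpa also lie inside their GENCODE gene models, while that of Sirt3 lies outside its model.

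The estimates of the other 3 sirtuins did not pass, and their intervals all held 0. Sirt2 (ENSMUSG00000015149.13, chr7:28766735-28788661, plus strand), a cytosolic deacetylase of tubulin among other proteins, had 2613 to 2781 normalized counts in control and 2524 to 2768 in ketogenic mice. Its log2 fold change was -0.05 with the narrowest interval of the 10, -0.12 to 0.03. Sirt3 (ENSMUSG00000025486.16, chr7:140863666-140882309, minus strand), the main mitochondrial deacetylase, had 604 to 762 and 635 to 814 normalized counts, with a log2 fold change of 0.04 (95% interval -0.13 to 0.22). It shares 418 exon bases with Ric8a and 342 with Psmd13 on the other strand, genes with up to 1983 and 1970 reads, so its level is uncertain. Sirt5 (ENSMUSG00000054021.5, chr13:43365496-43395203, plus strand), which removes succinyl and malonyl groups, had 351 to 459.6 and 373 to 481 normalized counts, with a log2 fold change of 0.12 (95% interval -0.11 to 0.35). The edgeR adjusted p of Sirt2, Sirt3 and Sirt5 were 0.510, 0.820 and 0.586.

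**Figure D2:**
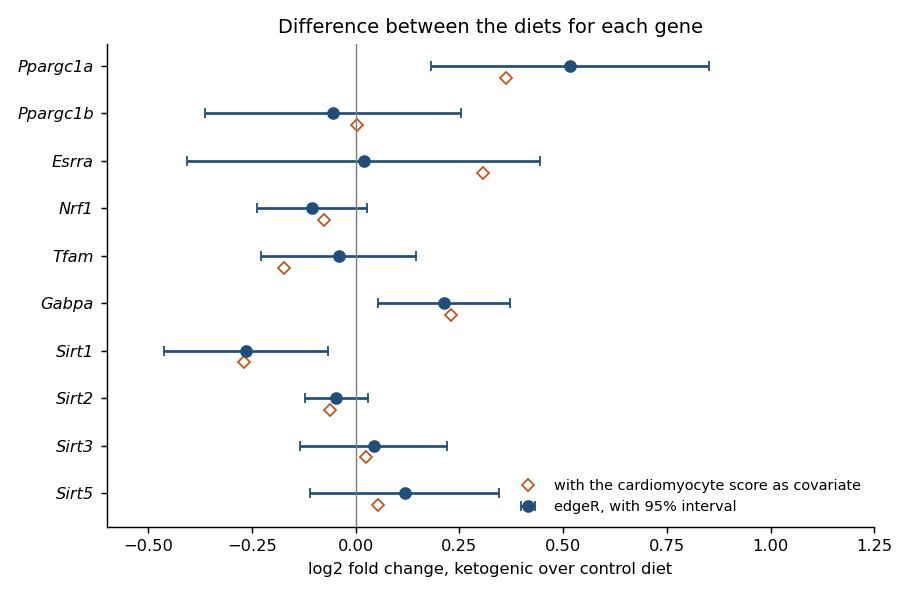
Log2 fold change, ketogenic against control (horizontal axis), of each of the 10 genes in edgeR, with its 95% interval (filled points), and the estimate when the cardiomyocyte score was in the fit (open diamonds, no interval drawn). The intervals of Ppargc1a (0.18 to 0.85), Gabpa (0.05 to 0.37) and Sirt1 (-0.46 to -0.07) leave out 0 and those of the other 7 genes cross it.

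Per length, the levels of the 10 genes spanned a wide range. In median RPKM over the 10 mice the order was Sirt2 (28.9), Sirt5 (27.0), Sirt3 (25.8), Tfam (9.86), Gabpa (8.87), Nrf1 (7.49), Ppargc1b (5.74), Sirt1 (3.38), Esrra (1.34) and Ppargc1a (0.651). The ranges of neighbours in that order overlapped except between Sirt3 (lowest 22.0) and Tfam (highest 11.1), and between Sirt1 (lowest 2.74) and Esrra (highest 1.76). The 3 highest were sirtuins of the cytosol and mitochondria, and the lowest was Ppargc1a, which exceeded 0.988 RPKM in no mouse. The place of Sirt3 is uncertain because of the shared exon bases given above. The order also rests on the authors' gene lengths, which ran from 1367 bases for Sirt5 to 19096 for Nrf1.

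Genes whose pattern over the 10 mice lay closest were found by the root mean square difference of standardized log2 CPM, where 0 is identity. The closest to Ppargc1a was Myom2, a gene of the sarcomeric M-band, at 0.273, with a log2 fold change of 0.84 (edgeR adjusted p = 0.134). The closest to Gabpa was Ankrd40 (0.294), to Sirt1 Gm26841 (0.313, on 3 to 26 reads), to Nrf1 Rdh5 (0.289) and to Sirt2 Elmo2 (0.201). For Ppargc1b it was Topors (0.275), for Esrra Ncdn (0.321), for Tfam Tmem168 (0.400), for Sirt3 Zfp2 (0.320) and for Sirt5 Agt (0.287).

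Among genes around these regulators, Pdk4 and Fabp3 were higher on the ketogenic diet. Of 12 tested textbook targets of PGC-1 and ERR, 2 rose and 0 fell, and their median estimate was 0.07. Among all tested genes 0.809% were higher and 0.527% lower. The list was drawn up with earlier results of these data known, and the paper had reported Pdk4 as raised by this diet. The 2 of 12 therefore cannot be weighed against the shares of all genes. Pdk4, the kinase that shuts pyruvate dehydrogenase, had normalized counts of 483, 641, 693, 555 and 615 in control mice 1 to 5 and 1474, 1439.6, 1654, 1622 and 1903 in ketogenic mice 1 to 5. The groups were far apart, and Pdk4 rose by a log2 fold change of 1.44 (SE 0.10, edgeR adjusted p = 1.03e-04), a call made in all 21 settings. Fabp3, a fatty acid binding protein of heart muscle, had 87.7 to 114 normalized counts in control and 145 to 163 in ketogenic mice and rose by 0.57 (SE 0.0994, edgeR adjusted p = 0.0204). Fabp3 passed in 17 of 21 settings and not in the fit with the cardiomyocyte score (log2 fold change 0.48, adjusted p = 0.174). By mouse, Fabp3 had 114, 87.7, 102, 105 and 109 normalized counts in control mice 1 to 5. In ketogenic mice 1 to 5 it had 146, 154, 160, 163 and 145. Beyond that fit, the part of the cardiomyocyte markers in the Fabp3 estimate was not tested. Fabp3 also missed without control mouse 3 and without ketogenic mouse 4, and with the replicate block (adjusted p = 0.0729). The other 10, among them Acadm (0.04), Idh3a (0.07) and Slc25a4 (-0.03, with raw reads also varying less than counting error), did not pass, and Cpt1b, with 4 to 13 reads, was not tested.

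None of the 15 tested partners and upstream regulators of PGC-1 passed, with 10 above 0 and a median of 0.10. Pprc1, the third member of the PGC-1 family, had 800 ± 111 normalized counts in control and 596 ± 132 in ketogenic mice, with a log2 fold change of -0.43 (edgeR adjusted p = 0.158). Ppara, the receptor that drives fatty acid oxidation genes, had a log2 fold change of 0.72 (edgeR adjusted p = 0.207) on 8 to 28 reads. None of the 8 textbook targets of NRF-1 and GABP passed, with 2 above 0 and a median of -0.06, and the electron carrier Cycs was at -0.19 and the import receptor Tomm20 at 0.16. For 4 of these 8 (Cox4i1, Cox5b, Sdhb and Atp5b) the raw reads varied less over the libraries than counting error alone gives, as with 1176 to 1202 reads for Cox4i1, so their small differences between diets cannot be read as a lack of change.

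None of the 18 genes of mitochondrial DNA maintenance and transcription passed, with 9 above 0 and a median of 0.01. Polg2, the accessory subunit of the mitochondrial DNA polymerase, had 885, 959, 826, 849.6 and 866 normalized counts in control mice 1 to 5 and 468, 900.2, 383, 564 and 551 in ketogenic mice 1 to 5. Ketogenic mouse 2 lay inside the control range and the other 4 lay far below it. The log2 fold change of Polg2 was -0.62 (SE 0.177, edgeR adjusted p = 0.105). Leaving out ketogenic mouse 2, the 1 inside the control range, gave -0.83 with an edgeR adjusted p of 0.00571. That fit called 492 of all tested genes, against 213 with every mouse. Leaving out any other mouse gave Polg2 an edgeR adjusted p of 0.144 to 0.194. Polg2 shares 132 exon bases with Milr1 on the opposite strand. The highest estimate of the list was that of Mterf1a, a transcription termination factor, at 0.21. The catalytic subunit Polg (-0.11), the helicase Twnk (0.17) and the RNA polymerase Polrmt (-0.15) did not pass.

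The other sirtuins Sirt4 (0.09), Sirt6 (-0.05) and Sirt7 (0.10) did not pass, and neither did any of the 12 tested genes that make or use NAD+, the cosubstrate of sirtuins (3 above 0, median -0.05). Nampt, the rate-limiting enzyme of NAD+ salvage, was at -0.08, and the synthetic enzymes Nmnat2 and Nmnat3 were at -0.32 and 0.24 (edgeR adjusted p of 0.279 and 0.632). Of 11 genes of mitochondrial fusion, fission and mitophagy, 0 passed and 7 were above 0, with a median of 0.03. Mff, the fission receptor, had 406 to 449.5 normalized counts in control and 453 to 559 in ketogenic mice, with a log2 fold change of 0.25 (edgeR adjusted p = 0.0935, and 0.0265 in DESeq2).

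**Figure D3:**
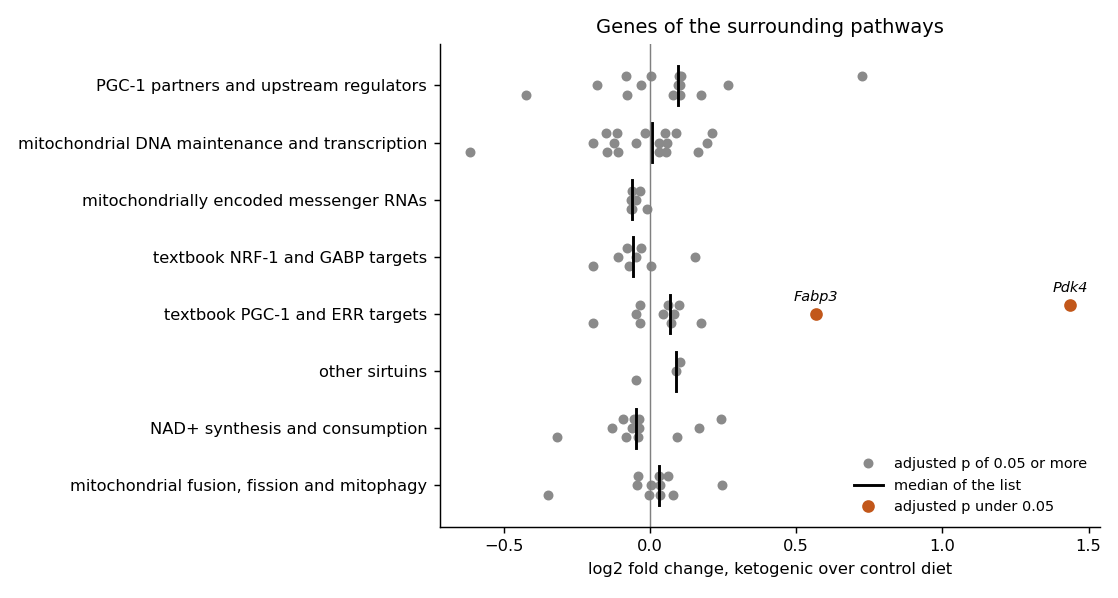
Log2 fold change, ketogenic against control (edgeR), of each tested gene in the lists of related genes, 1 point per gene, orange where it passed, with the median of each list as a black line. Pdk4 (1.44) and Fabp3 (0.57) are the 2 genes past the adjusted p of 0.05, and the medians of the lists lie between -0.06 and 0.10.

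The mRNAs encoded by mitochondrial DNA could not be read as an outcome. Of 13, 7 were tested, all with a log2 fold change below 0 (-0.07 to -0.01) and none past the test. Their counts barely varied, as with 1817 to 1830 reads for mt-Nd1 in every library, and the other 6 had 0 to 5 reads. Over the whole table only 5 genes had more than 2 reads per base of their length, and 128 lay between 1.5 and 2. The part of this ceiling in the constant mitochondrial counts was not tested. The 10 regulators and sirtuins had 0.386 reads per base or less, but a low value is no sign of free counting, since Cox4i1 varied only from 1176 to 1202 reads at 0.367 reads per base. The variance of the raw reads over the 10 libraries, divided by their mean, is 1 for counting error alone. It was below 1 for all 7 tested mitochondrial mRNAs and for none of the 10 regulators and sirtuins, which ran from 2.74 (Sirt2) to 14.6 (Gabpa). The raw reads of Sirt2 had a coefficient of variation of 3.21%, below the 4.77% of the library totals, and the part of the ceiling in its narrow interval was not tested.

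**Figure D4:**
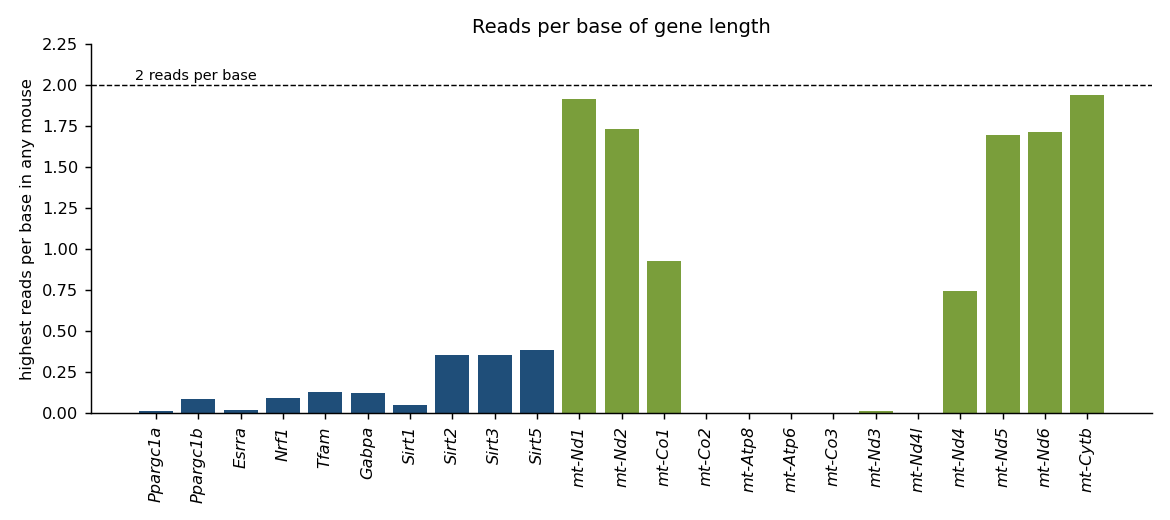
Highest number of reads per base of gene length in any mouse (vertical axis, from 0) for the 10 genes (blue) and the 13 mitochondrially encoded mRNAs (green), with a dashed line at 2 reads per base. The 10 genes reach at most 0.386, and 6 of the mitochondrial mRNAs are at or near 0.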

How the data were processed

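RNA of CD31+ cardiac cells from 10 mice (5 per diet, grouped by the diet label) was amplified with the SMART-Seq v4 kit from 10 ng and sequenced as 50-base single reads. The submitters' processing notes name bcl2fastq 2.17.1.14, STAR 2.3, HTSeq 0.6.0 and mm10; annotation release, strand setting and any removal of duplicate reads are not given in the sources used here. The authors deposited raw counts per gene and RPKM values made from those counts and gene lengths. Library totals were 10885154 to 12710861 reads, which limits genes with few reads. Of the gene identifiers, 46488 matched GENCODE M21 in any version, 37902 in the same version.

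Counts were filtered with filterByExpr, scaled by TMM and fitted with edgeR 4.0.16 (R 4.3.3, quasi-likelihood, diet as the only term, Benjamini-Hochberg adjustment over 15949 genes, threshold 0.05). Single genes were also tested by exact 2-sided permutation of log2 CPM (prior count 2, 252 regroupings), and the Ppargc1a to Ppargc1b ratio in RPKM likewise. Alternatives were other size factors, filters, DESeq2 1.42.0, limma 3.58.1 on log2 RPKM, a replicate block, a cardiomyocyte marker score and leaving out each mouse. Named genes were all 10 members, their closest genes, and from each related list those that passed and the highest and lowest estimate, of which 1 is not reported here; Acadm, Idh3a, Slc25a4, Gabpb1, Gabpb2, Polg, Twnk, Polrmt, Nampt, Sirt4, Cox4i1, Cox5b, Sdhb and Atp5b were added after their values were seen. The members and lists were chosen with earlier results of these data known. No 2 libraries agreed within sampling noise (lowest chi-square per gene 4.33).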

Additional observations from a re-analysis of the deposited data

Results flagged for a closer look

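Nrf1 on the control diet was the 1 result that stood out within a group. Control mouse 4 had 1453 normalized counts and the nearest control mouse 1748, a gap that took up 0.766 of the whole range of the 5 control mice. Of 22 groups of 5 mice examined in this way 1 was marked, and chance marks about 1 in 20, or 1.1 of 22.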

How the results depend on the processing

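Under 20 alternatives, none of the 10 genes passed the adjusted p of 0.05 in any, and Ppargc1a, Gabpa, Sirt5, Nrf1, Sirt1 and Sirt2 kept their direction in all (Ppargc1a from 0.22 with limma on log2(RPKM + 1) to 0.61). Genes called among all tested numbered 806 with DESeq2, 113 with the replicate block, 42 with the cardiomyocyte score, and 86 to 492 leaving out 1 mouse: 492 without ketogenic mouse 2, 86 to 134 without any other except control mouse 5 (152). DESeq2 called 1 gene of mitochondrial DNA maintenance (Polg2) and 1 of fusion and fission (Mff), as did leaving out ketogenic mouse 2 (0 to 1 over the mice). The PGC-1 and ERR targets had 1 call with the block and 1 with the score (1 to 2 over the mice), and the median of PGC-1 partners was 0.018 with the score (0.037 to 0.12 over the mice). Ppargc1b was at 0.0041 with the score.

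The replicate numbers did not pair the mice: same-numbered mice correlated at -0.19 to 0.11, and 1 of 10 correlated best with its own number. The block put Esrra at -0.0048.

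Leaving out 1 mouse gave log2 fold changes of -0.10 to 0.13 for Esrra, -0.13 to 0.041 for Ppargc1b, -0.087 to 0.0035 for Tfam and -0.0045 to 0.083 for Sirt3, and 3 to 6 members above 0 (3 without ketogenic mouse 3). The exact permutation p ranged from 0.516 to 0.960 for Esrra, 0.397 to 0.889 for Ppargc1b, 0.365 to 0.976 for Tfam, 0.397 to 0.968 for Sirt3, 0.00794 to 0.365 for Nrf1, 0.00794 to 0.0556 for Sirt1 and 0.0397 to 0.333 for Sirt2 (0.0397 without ketogenic mouse 2). The log2 ratio of Ppargc1a to Ppargc1b ranged from 0.26 to 0.43, and was 0.50 with a pseudocount of 0.1. The cause of these shifts was not tested. Depth limits Ppargc1a and Esrra most.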
